A study of Homo sapiens with 4 samples.

Results

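The mitochondrial ribosomal protein genes were examined in LASCPC-01 cells, an established human line of neuroendocrine prostate cancer (NEPC), with and without fluoxetine. They were chosen by symbol, as every gene listed whose name starts with MRPL or MRPS and a number, and this gave 78 of the 16376 genes listed, 49 with an MRPL and 29 with an MRPS symbol. Fluoxetine is an antidepressant that blocks serotonin reuptake. RNA was sequenced from 4 libraries, all labelled LASCPC-01 of genotype WT at day 3, of which 2 were cultured with the vehicle PBS and 2 with fluoxetine. LASCPC-01 is a single line, made from human prostate cells by adding NMYC and activated AKT1, so that all groups carry both genes. Nothing in the labels says that the libraries of a group came from separate cultures, and the p-values measure only the spread between these libraries, which may be technical.

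The mitochondrial ribosome, or mitoribosome, translates the few messenger RNAs encoded by mitochondrial DNA, which specify core subunits of the respiratory chain and of ATP synthase. Its ribosomal RNAs come from mitochondrial DNA, whereas all of its proteins are encoded in the nucleus, made in the cytosol and imported. Some of these proteins have bacterial counterparts and others were added in the mitochondrial lineage, and the particle is made of a small subunit, which holds the messenger RNA and decodes it, and a large subunit, which joins the amino acids. Symbol and place do not always match: MRPS30 (mL65) and MRPS18A (mL66) sit in the large subunit, and the protein of MRPS36 belongs to the 2-oxoglutarate dehydrogenase complex, not to the ribosome. By place, 51 genes belonged to the large subunit, 26 to the small subunit and 1 (MRPS36) to neither, which left 77 subunit genes on 21 chromosomes.

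The defining NEPC markers were present only in part. MYCN lay between 323 and 387 FPKM (fragments per kilobase of gene and per 1e6 reads). It encodes NMYC, which was added to make this line, so its level is no independent marker. NCAM1 lay between 44.3 and 52.0 FPKM, whereas SYP stayed under 1 FPKM and CHGA, CHGB and FOXA2 stayed under 0.1 FPKM. Of 8 markers of immune, stromal and endothelial cells, PTPRC, CD3E, COL1A2, PDGFRB and PECAM1 were at 0.0624 FPKM or less in every library, while VWF, CD68 and COL1A1 reached 0.147, 3.97 and 2.75 FPKM. The FPKM values of 16040 of the 16080 genes above 0, the 78 genes among them, could be turned back into whole reads, which put the depth at 32873603 and 34756748 reads in the PBS libraries and at 34806710 and 34831389 in the fluoxetine libraries.

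The promoters of these genes are shown first because they bear on what the genes share beyond their names. Of the 78 genes, 69 matched a RefSeq promoter of 300 bases (250 before and 50 after the start, build GRCh38.p14), and 5 motifs were searched on both strands in that window. The ETS motif CCGGAAG, bound by factors such as GABPA that are known regulators of mitochondrial genes, was present in 29 promoters (42.0%), against 10.7% of the 27305 promoters in the table and 19.4% of those of the genes tested here. The motif of YY1, AAGATGGCG, was present in 13 (18.8%), against 1.85% of all promoters and 3.98% of those of the tested genes. The NRF1 motif GCGCATGCG, also associated with nuclear genes for mitochondria, was found in 3 (4.35%), against 2.10% and 3.60%. The E-box CACGTG, bound by MYC family proteins among others, was found in 6 (8.70%), against 7.43% and 10.3%, and CCAAT in 20 of the 69, against 35.7% and 37.0%. ETS and YY1 motifs can overlap by 3 letters, and of 4 promoters that held both, in 0 did the matches overlap in that way. The ETS letters were in 18 of 44 promoters of large-subunit genes and in 11 of 25 of the small subunit, a description with no test.

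The bases just before the start are given 5′ to 3′ on the strand of the gene, 150 for each, with matches to the motifs in capitals (an ETS match reads CCGGAAG or, on the other strand, CTTCCGG, and CCAAT reads ATTGG there). MRPL33 is shown for the largest rise in the large subunit. MRPS26 is shown as one of the larger rises in the small subunit, where MRPS28, MRPS23 and MRPS6 rose more. MRPS34 and MRPL12 are shown as the most abundant transcripts of the small and the large subunit, and MRPS30 as the large-subunit gene with the lowest fold change. Whether a motif goes with a fold change was not tested.
MRPL33 (chr2:27771569-27771718, plus strand): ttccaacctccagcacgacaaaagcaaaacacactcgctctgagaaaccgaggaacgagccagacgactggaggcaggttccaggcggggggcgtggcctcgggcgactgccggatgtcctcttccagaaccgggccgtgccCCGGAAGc
MRPS26 (chr20:3045902-3046051, plus strand): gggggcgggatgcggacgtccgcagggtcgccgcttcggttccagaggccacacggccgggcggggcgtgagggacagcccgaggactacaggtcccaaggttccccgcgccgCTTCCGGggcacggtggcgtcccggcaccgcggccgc
MRPS34 (chr16:1773135-1773284, minus strand): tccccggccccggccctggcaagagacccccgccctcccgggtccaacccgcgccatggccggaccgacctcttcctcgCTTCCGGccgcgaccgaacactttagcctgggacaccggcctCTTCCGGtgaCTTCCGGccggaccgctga
MRPL12 (chr17:81703217-81703366, plus strand): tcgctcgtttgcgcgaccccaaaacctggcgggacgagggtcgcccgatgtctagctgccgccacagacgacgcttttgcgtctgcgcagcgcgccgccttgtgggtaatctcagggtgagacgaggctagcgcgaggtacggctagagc
MRPS30 (chr5:44808797-44808946, plus strand): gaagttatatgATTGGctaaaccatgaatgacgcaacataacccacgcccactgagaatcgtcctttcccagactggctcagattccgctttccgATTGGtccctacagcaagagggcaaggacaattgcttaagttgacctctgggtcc
MRPS34 held 3 ETS matches in this stretch, and MRPL33 and MRPS26 held 1 each. MRPL12 held none of the 5 motifs, and MRPS30 held CCAAT matches on the other strand. A match is a description of letters and not a site of binding.

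The mitoribosomal protein genes were abundantly and broadly expressed. Of the 77 subunit genes, 73 had a mean level above 10 FPKM, 9 had one above 100 FPKM, and 73 lay above the median of the 12663 genes tested, which was 7.94 FPKM. Although each protein is present once in the particle with few exceptions, the transcript levels ranged widely, and MRPS34, the highest, was 48.3 times MRPL42, the lowest after MRPS24. The medians were 42.3 FPKM for the large and 38.7 FPKM for the small subunit.

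In the small subunit, MRPS34, a mitochondria-specific protein needed for the stability of the subunit, had 243 and 245 FPKM in PBS and 268 and 248 FPKM in fluoxetine. MRPS26 followed at 130 and 121 FPKM in PBS and 150 and 138 FPKM in fluoxetine, and MRPS2 had 114 and 126 against 121 and 111 FPKM. The groups of MRPS34 and MRPS26 did not overlap, and those of MRPS2 did. MRPS12, the counterpart of the bacterial decoding-centre protein S12, stood at 65.1 and 51.3 FPKM in PBS and 67.1 and 58.2 FPKM in fluoxetine, again overlapping.

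In the large subunit, MRPL12, which forms the stalk that recruits translation factors, had 195 and 177 FPKM in PBS and 223 and 199.7 FPKM in fluoxetine. Both fluoxetine values lay above both PBS values. MRPL10, which anchors that stalk, stood at 39.3 and 40.5 FPKM in PBS and 40.4 and 38.3 FPKM in fluoxetine, and its groups overlapped. MRPL4 had 121 and 122 FPKM in PBS and 129 and 124 FPKM in fluoxetine, and MRPL37 had 111 and 103 against 112 and 103 FPKM. MRPL58, a peptidyl-tRNA hydrolase built into the subunit, and MRPL45, which lies at the exit of the peptide tunnel, had mean levels of 34.1 and 48.1 FPKM in PBS and 36.1 and 50.9 FPKM in fluoxetine.

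The lowest levels were those of MRPS24 and MRPS28 in the small and of MRPL42 and MRPL23 in the large subunit. Of these, MRPS24 and MRPS28 also had the fewest reads, whereas MRPL42 had 2676 or more in each library. MRPS24 was counted at 6 and 1 reads in PBS and 2 and 0 reads in fluoxetine, where 0 reads allow up to 3. GENCODE places a read-through gene with URGCP over 23.2% of its 2613 exon bases, whereas the length behind its FPKM was 667 bases. Whether reads shared with that gene were left out was not tested. The count of MRPS24 therefore does not show an absent transcript, and no fold is given for it. MRPS28 had 160 and 107 reads in PBS and 209 and 133 in fluoxetine (5.81, 3.67, 7.17 and 4.56 FPKM), and 35.8% of its exon bases are shared on the same strand with another gene. MRPL23 had 8.27 and 10.5 FPKM in PBS and 13.9 and 7.96 FPKM in fluoxetine, and MRPL42 had 5.33 and 5.04 against 5.46 and 4.94 FPKM. In MRPS28 and MRPL23 the fluoxetine replicates lay farther apart than the group means. The plot of levels by library shows each of the 77 subunit genes.

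**Figure D1:**
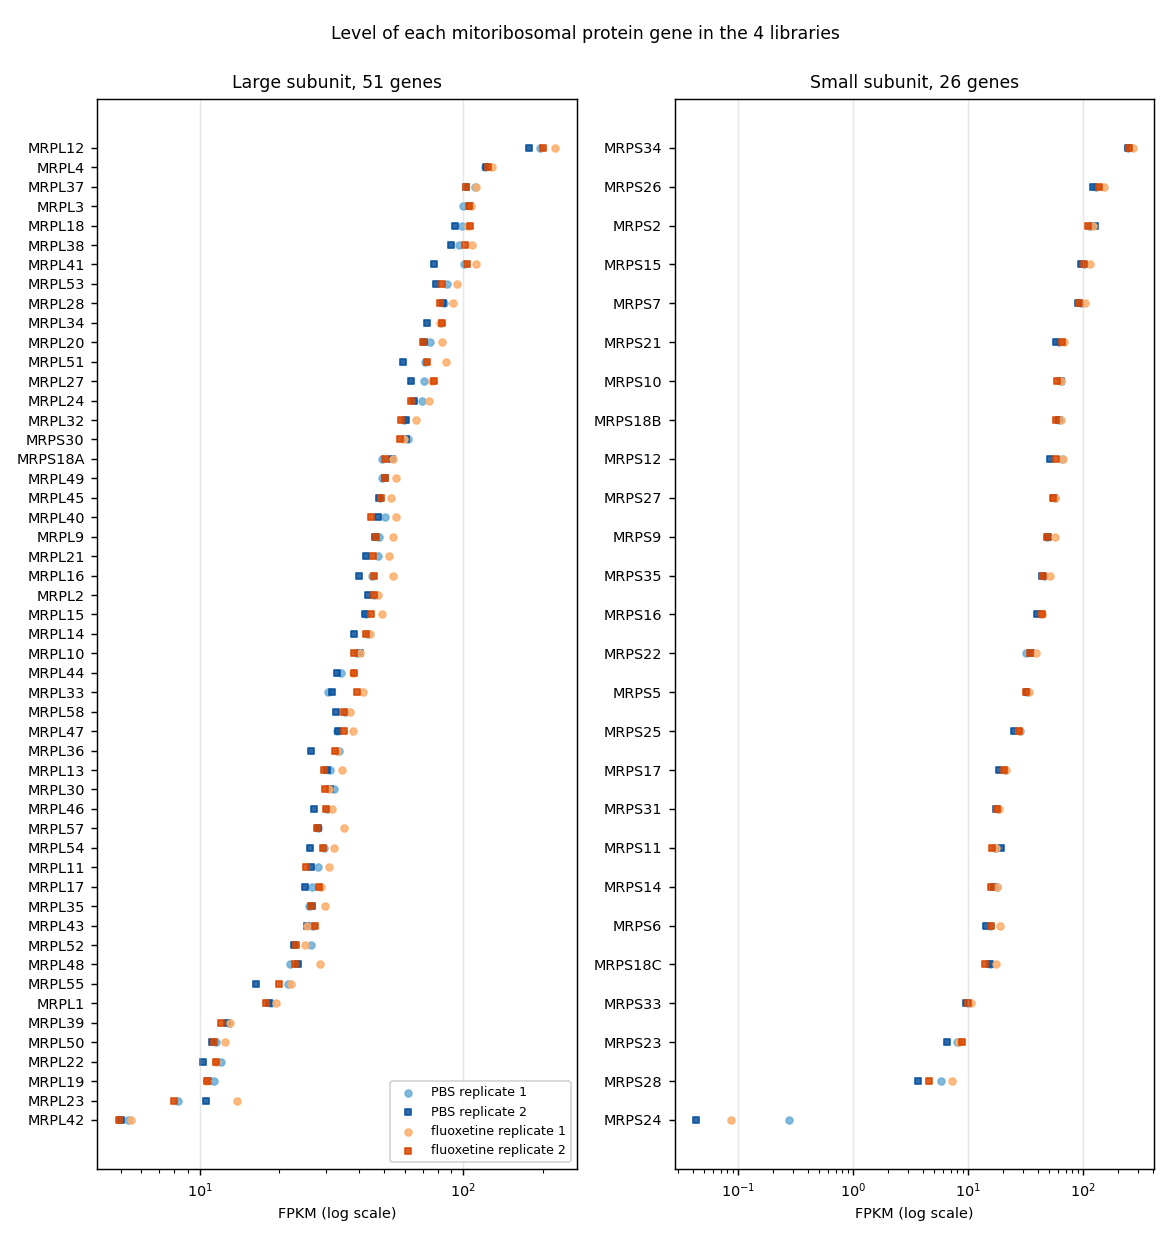
FPKM (log scale, separate range in each panel) of the 51 large-subunit and 26 small-subunit genes in the 4 libraries, ordered by mean level. Blue symbols are PBS and orange symbols fluoxetine, circles replicate 1 and squares replicate 2, and the library of MRPS24 with 0 reads is not drawn. The orange circles (fluoxetine replicate 1) lie farthest to the right in 58 of the 77 genes.

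Between PBS and fluoxetine, 0 of the 78 genes passed an adjusted p of 0.05 (limma, Benjamini-Hochberg over 12663 genes), a threshold that 30 of all genes tested passed (percent called 0.237%, with 0.0237% higher and 0.213% lower in fluoxetine). At an unadjusted p under 0.05 there were 11 genes, all higher in fluoxetine (3.73% of all genes were called in that direction) and 0 lower (4.79% of all genes). Of these 11, 8 were large-subunit genes and 3 small-subunit genes. The count fell to 4 with values rescaled to TPM and to 4 with the trend on gene length removed. The shares over all genes in those runs are not given here, so whether the fall is particular to these genes cannot be told. FPKM are relative to the whole library, and in bulk samples fewer cells of a type and less RNA per cell cannot be told apart. A limma voom fit on the recovered reads, added after the data were seen, also called 0. For 1 gene, permuting 2 libraries against 2 gives an exact two-sided p of 0.33 at the least.

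MRPL33, the counterpart of bacterial L33, came closest. It had 30.7 and 31.7 FPKM in PBS and 41.7 and 39.4 FPKM in fluoxetine, from 513, 559, 737 and 698 reads. Both fluoxetine libraries lay above both PBS libraries by more than either group's own spread. The log2 fold change was 0.38 (SE 0.07, limma adjusted p = 0.072), a level 1.30 times that in PBS. Its gene length as recovered from the FPKM, the shortest that gave whole reads, was 508 bases. Among the 604 tested genes with a recovered length under 1000 bases, its fold change ranked 70 from the top. With the trend on gene length removed from each library, its log2 fold change was 0.24 (limma adjusted p = 0.52). It passed the threshold with the trend on GC content removed (limma adjusted p = 0.045) and with a minimum mean of 1 FPKM (limma adjusted p = 0.0496). BABAM2, with which it shares 21.1% of its exon bases, had 13.7 and 14.1 FPKM in PBS and 15.0 and 13.2 FPKM in fluoxetine.

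The next largest differences among large-subunit genes were in MRPL51, MRPL41 and MRPL16. MRPL51, a mitochondria-specific protein, had 71.2 and 59.2 FPKM in PBS and 86.0 and 72.8 FPKM in fluoxetine (log2 fold change 0.28, SE 0.10, limma adjusted p = 0.51). MRPL41 had 100.7 and 77.1 FPKM in PBS and 112 and 103 FPKM in fluoxetine (log2 fold change 0.28, SE 0.11, limma adjusted p = 0.53). MRPL16, the counterpart of bacterial L16, had 45.1 and 40.1 FPKM in PBS and 54.3 and 45.6 FPKM in fluoxetine (log2 fold change 0.23, SE 0.09, limma adjusted p = 0.54). In each of these 3 genes the groups did not overlap, but the higher PBS value lay within 3 FPKM of the lower fluoxetine value.

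Among small-subunit genes, MRPS28 had the largest fold change (log2 0.30, SE 0.21), with the wide spread described above. MRPS23 had 7.97 and 6.47 FPKM in PBS and 8.36 and 8.82 FPKM in fluoxetine (log2 fold change 0.26, SE 0.11, limma adjusted p = 0.56). MRPS6, the counterpart of bacterial S6, had 15.6 and 14.2 FPKM in PBS and 18.7 and 15.6 FPKM in fluoxetine (log2 fold change 0.20, SE 0.10, limma adjusted p = 0.58). Its lower fluoxetine value nearly met its higher PBS value. MRPS26 had a log2 fold change of 0.20 (SE 0.08, limma adjusted p = 0.54).

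In the other direction the differences were small. MRPS30 had 61.7 and 60.5 FPKM in PBS and 59.4 and 57.2 FPKM in fluoxetine (log2 fold change -0.07, SE 0.07), and MRPL30 had 32.4 and 31.2 FPKM against 31.0 and 29.9 FPKM (-0.06, SE 0.07). MRPL19 had 11.3 and 10.7 FPKM in PBS and 10.66 and 10.68 FPKM in fluoxetine (-0.04, SE 0.09). These 3 large-subunit genes were the ones in which both fluoxetine libraries lay below both PBS libraries, and each fold change was no larger than its SE. MRPL39 stood at -0.03 (SE 0.09). In the small subunit MRPS11 stood at -0.11 (SE 0.09), MRPS10 at -0.06 (SE 0.07) and MRPS2 at -0.05 (SE 0.08), all overlapping between groups.

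The 3 relatives of bacterial S18, of which only MRPS18C is counted here among the genes with a bacterial counterpart, gave log2 fold changes of 0.03 for MRPS18A (SE 0.08), -0.01 for MRPS18B (SE 0.08) and 0.02 for MRPS18C (SE 0.10). MRPS36, outside the ribosome, had 17.6 and 13.4 FPKM in PBS and 16.8 and 17.4 FPKM in fluoxetine, with a log2 fold change of 0.15 (SE 0.11). The 95% interval of the fold change included 0 in 66 of the 77 subunit genes, and in 71 it lay wholly within 0.5 of 0 on the log2 scale.

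**Figure D2:**
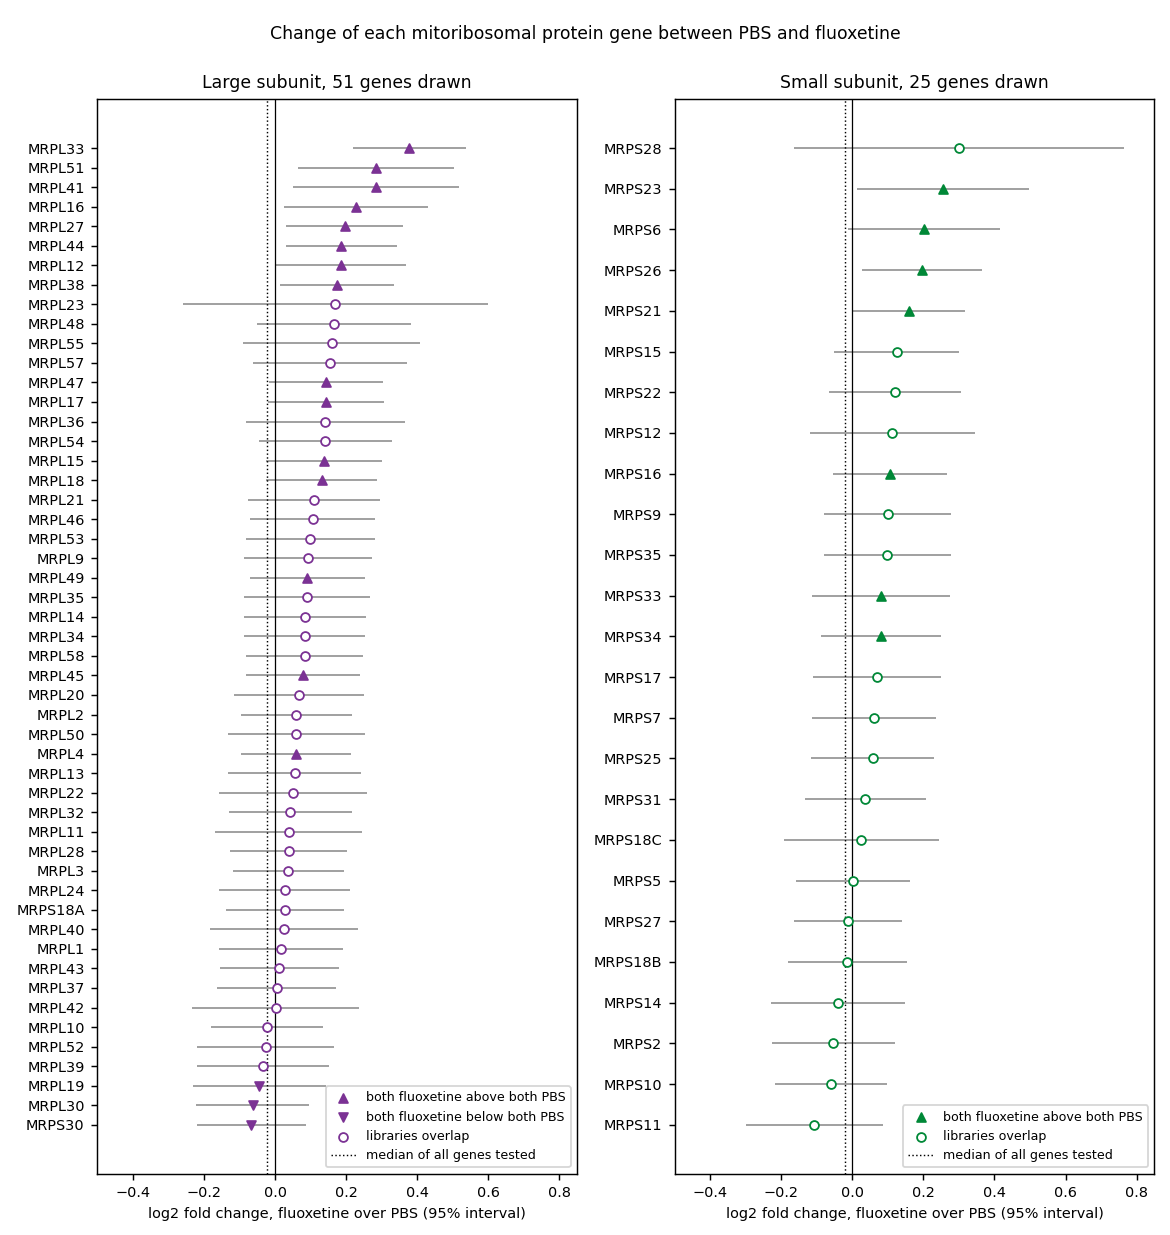
Log2 fold change of fluoxetine over PBS with its 95% interval for the 51 large-subunit genes and 25 small-subunit genes, on log2(FPKM + 0.1); MRPS24, at 6 reads or fewer in every library, is not drawn. Filled triangles mark genes whose groups do not overlap (15 higher and 3 lower in the large subunit, 7 higher and 0 lower in the small subunit), and the dotted line is the median of all genes tested, -0.02.

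Counted together, the genes leaned towards fluoxetine by a small amount. The groups did not overlap in 25 genes, with 22 higher in fluoxetine (28.2% of the 78, where the percent called over all genes was 16.7%) and 3 lower (3.85%, where it was 24.8%). The fold change was above 0 in 65 of the 78, against 43.5% of all genes. The median log2 fold change of the 77 subunit genes was 0.08, against -0.02 over all genes tested, and the median SE of a single gene was 0.08. The split of 22 higher and 3 lower moved to 16 and 10 when values were rescaled to TPM (10.7% of all genes then lay higher and 32.1% lower), to 18 and 5 with quantile normalization (19.3% and 19.8%), to 17 and 8 with the length trend removed (19.5% and 20%), and to 27 and 0 with median centring (21.3% and 19.9%).

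The large and the small subunit had near-equal medians. The median log2 fold change was 0.08 in each, 15 of 51 large-subunit genes (29.4%) and 7 of 26 small-subunit genes (26.9%) lay higher without overlap, and 45 of 51 and 19 of 26 had a fold change above 0. The large median exceeded the small by 0.0086 on the log2 scale, where the SD of that difference between replicates was 0.0075. Genes with a bacterial counterpart and mitochondria-specific genes had medians of 0.08 and 0.08 in the large subunit (30 and 21 genes) and 0.06 and 0.08 in the small subunit (16 and 10 genes).

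The lean lay mainly in 2 libraries, fluoxetine replicate 1 (high) and PBS replicate 2 (low). Relative to each gene's mean over the 4 libraries, the subunit genes had medians of -0.00 and -0.07 in PBS replicates 1 and 2 and of 0.10 and -0.03 in fluoxetine replicates 1 and 2. Fluoxetine replicate 1 was the highest of the 4 libraries in 58 of the 77 genes, against 26.9% of all genes tested, and fluoxetine replicate 2 in 7. PBS replicate 2 was the lowest in 39. The replicates of fluoxetine differed by a median of 0.12 on the log2 scale and those of PBS by 0.08, as much as the groups did.

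Pair by pair, fluoxetine replicate 1 exceeded PBS replicate 1 by a median of 0.10 and PBS replicate 2 by 0.18. Fluoxetine replicate 2 differed from PBS replicate 1 by -0.03, with 30 of 77 genes higher, and from PBS replicate 2 by 0.03, with 45 of 77 higher. Without fluoxetine replicate 1 the median fold change of the subunit genes was 0.01, and 24 genes lay above and 26 below both PBS libraries (29.1% and 38.6% of all genes). Without fluoxetine replicate 2 the median was 0.14, with 63 genes higher and 4 lower (32.8% and 42.2%). The change exceeded both within-group differences in 15 of the 77 genes, against 27.3% of all genes. The plot of deviations by library shows both subunits shifted together in each library.

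**Figure D3:**
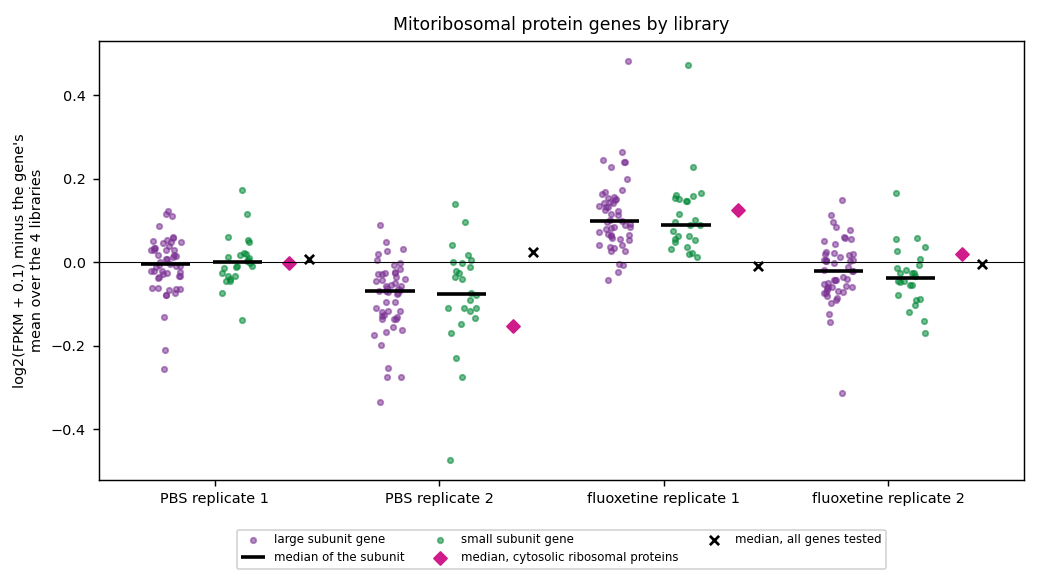
Deviation of each subunit gene from its own mean over the 4 libraries, on the log2 scale of FPKM + 0.1, with the large subunit in purple, the small subunit in green and their medians as bars; MRPS24 is not drawn. Fluoxetine replicate 1 lies high (medians 0.10 and 0.09) and PBS replicate 2 low (-0.07 and -0.08), and the cytosolic ribosomal protein genes (diamonds) follow the same order at these ends, while the median of all genes (crosses) stays within 0.03 of 0.

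The same libraries differed by gene length. The correlation over genes of the deviation from the gene mean with log2 length was -0.28 in fluoxetine replicate 1, 0.19 in PBS replicate 2, 0.06 in PBS replicate 1 and 0.05 in fluoxetine replicate 2, a description over 12663 genes that share 4 libraries. The mitoribosomal protein genes were short by the length recovered from the FPKM, the shortest that gave whole reads. Their median was 1399 bases, against 3843 over all genes tested, and 71 of the 77 subunit genes were shorter than that. The true length of a gene could be a multiple of its recovered length. The part of length in their fold changes was not tested, and the medians by length class stand beside those of all genes.

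In every length class the subunit genes were close to all genes of the same length. Under 1000 bases their median log2 fold change was 0.12 (19 genes) against 0.11 over all 604 genes, and from 1000 to 1500 bases it was 0.08 (21 genes) against 0.06. From 1500 to 2500 bases it was 0.06 (22 genes) against 0.03, and at 2500 bases or more 0.01 (15 genes) against -0.05. The subunit genes lay 0.01 to 0.06 above all genes of their class. With the length trend removed from each library, the median fold change was 0.02 in the subunit genes and -0.00 over all genes, with 0.02 in each subunit.

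**Figure D4:**
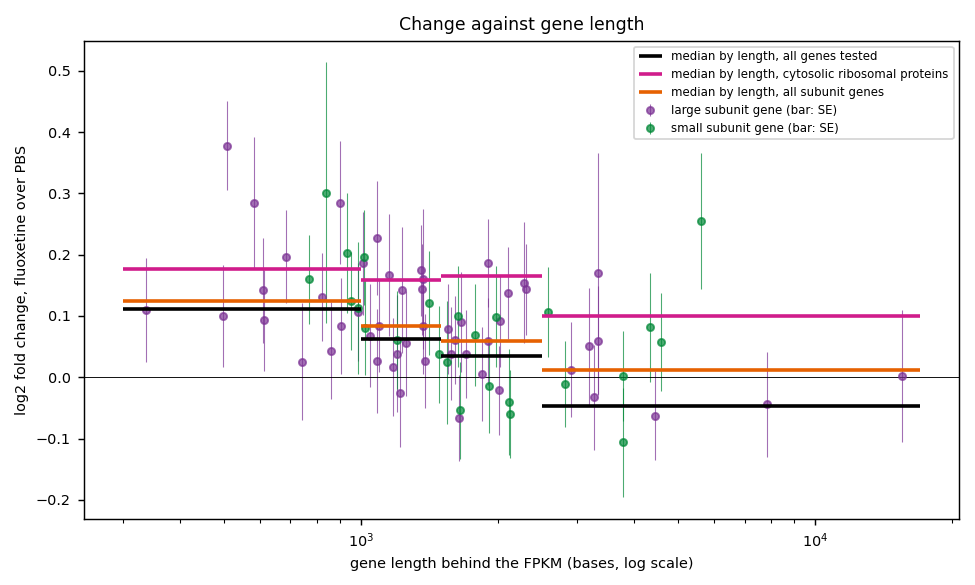
Log2 fold change of fluoxetine over PBS (with SE) against gene length in bases (log scale) for large-subunit (purple) and small-subunit (green) genes, MRPS24 not drawn. Horizontal bars are medians by length class for all genes tested (black), the mitoribosomal protein genes (orange) and cytosolic ribosomal proteins (pink); the black bars go from 0.11 under 1000 bases to -0.05 at 2500 bases or more, and the orange bars from 0.12 to 0.01.

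The genes that build and serve the mitoribosome also had small medians above 0, which differed between lists. The 5 subunit proteins without an MRP symbol (DAP3, PTCD3, AURKAIP1, CHCHD1 and GADD45GIP1) had a median log2 fold change of 0.07. With the length trend removed it was 0.05. CHCHD1 stood at 0.16 (SE 0.09) and PTCD3 at -0.01 (SE 0.08). Of 24 assembly factors, which process the ribosomal RNA and join the subunits, 10 lay higher without overlap and 0 lower (16.7% and 24.8% of all genes), with a median of 0.05, or 0.07 with the length trend removed. MRM3, a methyltransferase of the large ribosomal RNA, had 23.3 and 18.0 FPKM in PBS and 25.1 and 24.2 FPKM in fluoxetine (log2 fold change 0.27, SE 0.11), and YBEY stood at -0.17 (SE 0.16). The 13 translation factors had a median of 0.05, or 0.01 with the length trend removed. They ranged from TSFM at 0.15 (SE 0.10) to MTRFR at -0.11 (SE 0.11).

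Of 13 genes for transcription and handling of mitochondrial RNA, the median was 0.01, or 0.04 with the length trend removed. SLIRP, which binds mitochondrial messenger RNAs together with LRPPRC, had 116 and 124 FPKM in PBS and 165 and 134 FPKM in fluoxetine (log2 fold change 0.31, SE 0.10, limma adjusted p = 0.41). LRPPRC had 90.6 and 89.9 FPKM in PBS and 87.4 and 86.0 FPKM in fluoxetine (log2 fold change -0.06, SE 0.07). The change of LRPPRC was smaller than its SE. The groups overlapped in neither gene, where 16.7% of all genes lay higher and 24.8% lower without overlap. SLIRP had the shortest recovered length of the list (424 bases) and LRPPRC the longest (6630 bases). The part of length in this pair was not tested. TEFM, a transcription elongation factor, stood at -0.17 (SE 0.13). In these 4 lists 0 genes passed an adjusted p of 0.05. Of the 13 messenger RNAs of mitochondrial DNA, 0 were among the genes listed under their MT- symbols, so they could not be analysed.

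Other families that share the small size or the organelle were set beside the mitoribosome. Of 81 cytosolic ribosomal protein genes tested, 42 lay higher in fluoxetine without overlap and 0 lower (16.7% and 24.8% of all genes), with a median log2 fold change of 0.15, or 0.09 with the length trend removed, from RPL34 at 0.37 (SE 0.09) to RPL36A, under 0.5 FPKM in every library, at -0.39 (SE 0.52). A second family was taken by symbol, as 37 genes named NDUFA, NDUFB, NDUFC, NDUFS or NDUFV and a number. Most but not all of these encode subunits of respiratory complex I. Of the 37, 17 lay higher and 0 lower, beside the same shares of all genes. Their median was 0.12, or 0.06 with the length trend removed, from NDUFB2 at 0.34 (SE 0.13) to NDUFA5 at -0.03 (SE 0.10). The mitoribosomal protein genes, at 0.08 and 0.02, lay under both families on each scale, and 0 genes of either family passed an adjusted p of 0.05.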

How the data were processed

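LASCPC-01 cells were grown with PBS or fluoxetine. The labels give day 3 and no dose, whereas the methods of the study describe 5 µM for 48 h. The titles of both fluoxetine libraries carry PP, and groups were taken from the treatment label. The labels name a stranded mRNA kit and paired-end sequencing, whereas the methods of the study name a different library kit. Which kit was used is not settled here. The authors deposited 1 table of FPKM values for the 4 libraries. The submitters' processing notes name fastp, HISAT2, HTSeq and GRCh38, with versions, annotation and strand setting not given in the sources used here. The mitoribosomal genes and all lists were chosen with earlier results of these data known.

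Genes averaging at least 0.1 FPKM (12663) were put on the scale log2(FPKM + 0.1) and fitted with limma 3.58.1 (R 4.3.3; trended eBayes, Benjamini-Hochberg), a test chosen because FPKM are not counts. The deposited FPKM were multiples of whole reads for 16040 of 16080 genes above 0 (99.8%, tolerance 1e-05). This gave the shortest possible gene lengths and the smallest possible reads. True lengths and reads could be multiples of these. The reads were used for limma voom, with library sizes scaled by the median of ratios. Replicates of a group differed by more than sampling noise (chi-square per degree of freedom 7.76 and 9.38). Named genes were, in each subunit, the 4 largest rises and falls, the 3 highest and 2 lowest levels, and genes of known place in the ribosome; in other lists, the largest rise and fall. LRPPRC and BABAM2 were named after their values were seen. Gene positions and shared exon bases came from GENCODE 29 (GRCh38), in which 41 of the 78 genes share exon bases with another gene and 34 have a named pseudogene, so that their reads may be split or shared. Promoters came from RefSeq. Scripts were tested on simulated data. Intervals and floors cover counting error or the spread between libraries only. Some marker genes are not reported here.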

Additional observations from a re-analysis of the deposited data

How the results depend on the processing

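With 2 libraries a group and SEs near 0.08, small differences could not be told from replicate spread. Of the 30 genes named by rule, 14 kept the sign of their fold change under every alternative run. Many of the 30 were named for the size of that change in these data, so the count says nothing of other genes. The 14 include MRPS24, whose few reads allow no fold to be read. Leaving out a library leaves 1 in its group, which is then assumed to vary like the others.

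The count of mitoribosomal genes past an adjusted p of 0.05 was 1 (MRPL33) with a minimum mean FPKM of 1 (limma adjusted p = 0.0496), with the GC trend removed (0.045) and with the replicate number as a block (0.028); it was 0 under every other alternative run. The replicate numbers share no stated origin: the deviations of same-numbered libraries correlated at 0.035 over all tested genes and at 0.10 over those with a mean of at least 10 FPKM. In the subunit genes replicate 2 lay below replicate 1 in both groups, with median differences of -0.08 in PBS and -0.12 in fluoxetine. Pairing was not assumed. Calls over all genes, 30 as reported, were 64 with the block, 46 with voom, 16 with quantile normalization, 0 without a filter, 0 without the eBayes trend and 2 to 12 with a library left out. The cause of these calls was not tested. TMM scaling of the recovered reads was planned and not run, because the count package that computes it was not used on a deposit of FPKM values; median-of-ratios scaling took its place and was chosen after seeing the data.

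The median log2 fold change of the subunit genes ranged from 0.0102 (without fluoxetine replicate 1) to 0.143 (without fluoxetine replicate 2) when a library was left out, that of the large subunit from 0.0207 to 0.154 and that of the small subunit from 0.00 to 0.13; other alternatives kept all 3 above 0, from 0.02 to 0.11. The large minus small difference was -0.0044 with the length trend removed, with and without the replicate block, and 0.0101 to 0.0212 with a library left out; the cause was not tested. The count of genes whose groups did not overlap was 37 to 67 with a library left out, where fewer libraries make non-overlap easier. The shares over all genes also rose in the runs without a fluoxetine library, as given above. Those of the runs without a PBS library are not given here, so this range is not read as a result about these genes.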
